A study of Mus musculus with 12 samples.

Results

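The comparison described here is the split of tumour macrophages by an arginase 1 reporter inside 1 tumour, the B16F10 melanoma, a transplantable mouse melanoma line. It comprises 6 of the 12 libraries of the study, chosen because their labels name B16F10: 3 libraries of reporter-positive (RFP+) macrophages and 3 of reporter-negative (RFP-) macrophages, each carrying the title number 12, 11 or 3. All groups came from Arg1-RFP mice, in which red fluorescence reads out Arg1, and the labels name no strain, age or time of tumour growth. The other 6 libraries were the same RFP+ and RFP- gates from MC38, a colon carcinoma line, and served for comparison. In every group the sorted cells were positive for CD45, MHCII, F4/80 and CD11b and negative for CD90.2, B220, NK1.1, Ly6G and Ly6C, so surface MHC class II was present on the sorted cells of both gates. The design text gives 3 mice, but which library came from which animal is not labelled.

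Arginase 1 splits arginine into ornithine and urea. In tumours, macrophages that make it are known for taking arginine away from T cells, whose growth depends on it, and for feeding ornithine into polyamine and proline synthesis. Macrophages also present peptides on MHC class II, recruit other leukocytes with chemokines and remodel matrix with secreted proteases, and the data below are grouped by these roles.

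Levels are FPKM, fragments per kilobase of transcript, scaled to the depth of the library, as the authors deposited them. Total FPKM was 622657 to 629910 in the RFP+ libraries and 614875 to 815591 in the RFP- libraries, and 10756 to 11103 genes reached 1 FPKM in each B16F10 library. Read totals are not used here. The FPKM worth 1 read was estimated from the most frequent ratio of low values between each library and MC38 RFP- library 2. Relative to that library it was 3.03 to 3.73 in the B16F10 libraries. That this ratio reflects the FPKM of 1 read is an assumption, under which low levels in B16F10 are the less precise ones. RFP- library 12 stood apart: it had the highest total, 10597 genes listed at 0, and r from 0.933 to 0.958 with the other B16F10 libraries across genes, where these gave 0.963 to 0.985 among themselves. All 16 macrophage core markers were detected, with a summed level of 8105 to 15142 FPKM in RFP+ and 6336 to 11185 FPKM in RFP- libraries. Melanocytic genes were as high in both gates, with a sum over 12 markers of 8321 to 10944 FPKM in RFP+ and 8350 to 10936 FPKM in RFP- libraries, against 16.2 to 22.6 FPKM in the MC38 libraries; none of the 12 passed the test between gates. Their part in the results was not tested. Erythroid markers summed to 61.3 to 335 FPKM in RFP+ and 57.2 to 310 FPKM in RFP- libraries, highest in number 3 of both gates. T cell markers other than Il7r summed to 3.59, 4.59 and 4.42 FPKM in RFP+ and 6.57, 3.35 and 9.74 FPKM in RFP- libraries, which overlap. Il7r, which rose, made up most of the sum of all T cell markers, and Cd3d, Cd3e and Cd8a were under 1 FPKM in all 6 libraries. The highest mean levels in RFP+ cells belonged to the ferritin chains Ftl1 (16980 ± 927 FPKM) and Fth1 (8861 ± 731 FPKM) and to the lysozyme gene Lyz2 (6225 ± 2583 FPKM; SD, n = 3 libraries each), followed by Gapdh, Ppia, Ldha, Apoe, Spp1, Ctsd and Aldoa. Of these 10 genes only Spp1 differed between the gates past the threshold.

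The first question was which genes set RFP+ apart from RFP- macrophages of B16F10. Differences are RFP+ minus RFP- on the scale log2(FPKM + 1), which understates the change of low genes, and a gene was called when limma gave it a Benjamini-Hochberg adjusted p under 0.05 over the 11175 genes tested. Of these, 106 were higher (0.949%) and 66 lower (0.591%) in RFP+ cells, together 1.54%. Each of the 172 genes moved the same way in 3 of 3 pairs of libraries with the same title number, and the median log2 difference over all genes tested was -0.01. The median log2 difference was 1.08 for the higher and -0.97 for the lower genes, and 62 and 30 of them differed by more than 1. The levels of the 3 RFP+ libraries lay wholly above those of the RFP- libraries for 73 of the 106 higher genes, where 5.73% of all genes tested did so, and wholly below them for 36 of the 66 lower genes, where 6.3% did.

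Most of these calls rest on the pairing of libraries and on the shared spread of both tumours. The pair differences varied more in B16F10 (median SD 0.33 on the log2 scale) than in MC38 (0.19), so the shared estimate is smaller than that of B16F10 alone. With the B16F10 libraries fitted alone 50 of the higher and 19 of the lower genes still passed, where 0.635% of all genes tested did, and without the pairing 17 and 6 did, where 0.206% did. Leaving out pair 3 kept 43 and 10 of them, and leaving out pair 12, which holds the library that stood apart, kept 86 and 44. In all, 46 of the 172 genes (37 higher, 9 lower) passed both with B16F10 alone and without each of the 3 pairs. These calls are termed steady below, and for other genes the settings of these 4 that ended the call are given with their limma adjusted p. Scaling all libraries to the macrophage core genes shifted the median of all genes to -0.17 and left 117 genes higher and 521 lower, in place of 106 and 66, so directions are given relative to the whole of the genes tested.

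**Figure D1:**
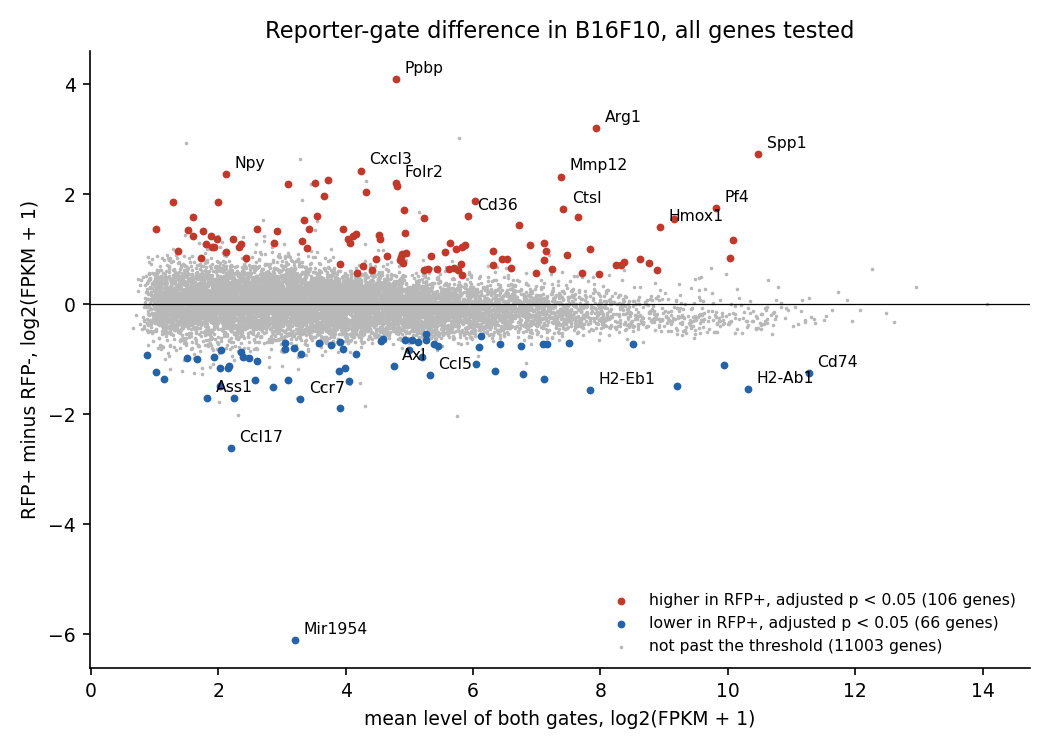
Each point is 1 of the 11175 genes tested. The horizontal axis is the mean of both gates as log2(FPKM + 1), the vertical axis is RFP+ minus RFP- in B16F10 on the same scale, and red and blue mark the 106 higher and 66 lower genes. Among the called genes Ppbp, Arg1 and Spp1 lie highest, and the MHC class II genes lie among the lower genes of highest level.

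Arg1 itself, which the gate reads out, checked the labels. It had 615, 642 and 916 FPKM in RFP+ libraries and 62.8, 56.2 and 125 FPKM in RFP- libraries, in that order of title numbers 12, 11 and 3, which is kept throughout. The lowest RFP+ library was far above the highest RFP- library, and the difference was the log2 difference was 3.21 ± 0.13 (SE, limma adjusted p = 5.19e-07). The RFP- cells were thus low in Arg1 but not without it. Since the gate selects on this gene, its difference describes the sort.

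Around Arg1, the genes of arginine use moved apart. Of 20 arginine and polyamine genes tested, 3 were higher and 1 was lower, against 0.949% and 0.591% of all genes. Arg1, on which the gate selects, is 1 of the 3 higher genes, so the count is partly set by the sort. The other higher genes, Slc7a2 and Nos2, were not steady. Slc7a2, a transporter that brings arginine into the cell, had 3.86, 3.85 and 2.89 FPKM in RFP+ libraries and 0.208, 0.921 and 1.38 FPKM in RFP- libraries. It was higher in every RFP+ library, with the log2 difference was 1.35 ± 0.24 (SE, limma adjusted p = 0.018), but did not pass with B16F10 alone (limma adjusted p = 0.0695), without pair 12 (0.0659) or without pair 11 (0.0505). Nos2, which makes nitric oxide from the same arginine, had 5.34, 7.04 and 6.33 FPKM in RFP+ libraries and 2.48, 2.94 and 3.79 FPKM in RFP- libraries. Its groups did not overlap, yet its call (log2 difference 0.84 ± 0.18, SE, limma adjusted p = 0.04998) is at the threshold and ended with B16F10 alone (0.251) and without any 1 pair (0.0945, 0.0876 and 0.126 without pairs 12, 11 and 3). Ass1, which rebuilds arginine from citrulline, went the other way with 1.41, 0.471 and 0.982 FPKM in RFP+ libraries and 7.71, 3.39 and 5.31 FPKM in RFP- libraries. All RFP- libraries were above all RFP+ libraries, the mean was 5.73-fold lower in RFP+ cells, and the call (log2 difference -1.7 ± 0.17, SE, limma adjusted p = 0.000568) was steady. The second arginase, Arg2, did not pass (log2 -0.29), and neither did the 9 polyamine genes, among them Odc1, which turns ornithine into putrescine (log2 0.08), nor the 4 genes of other ornithine fates.

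**Figure D2:**
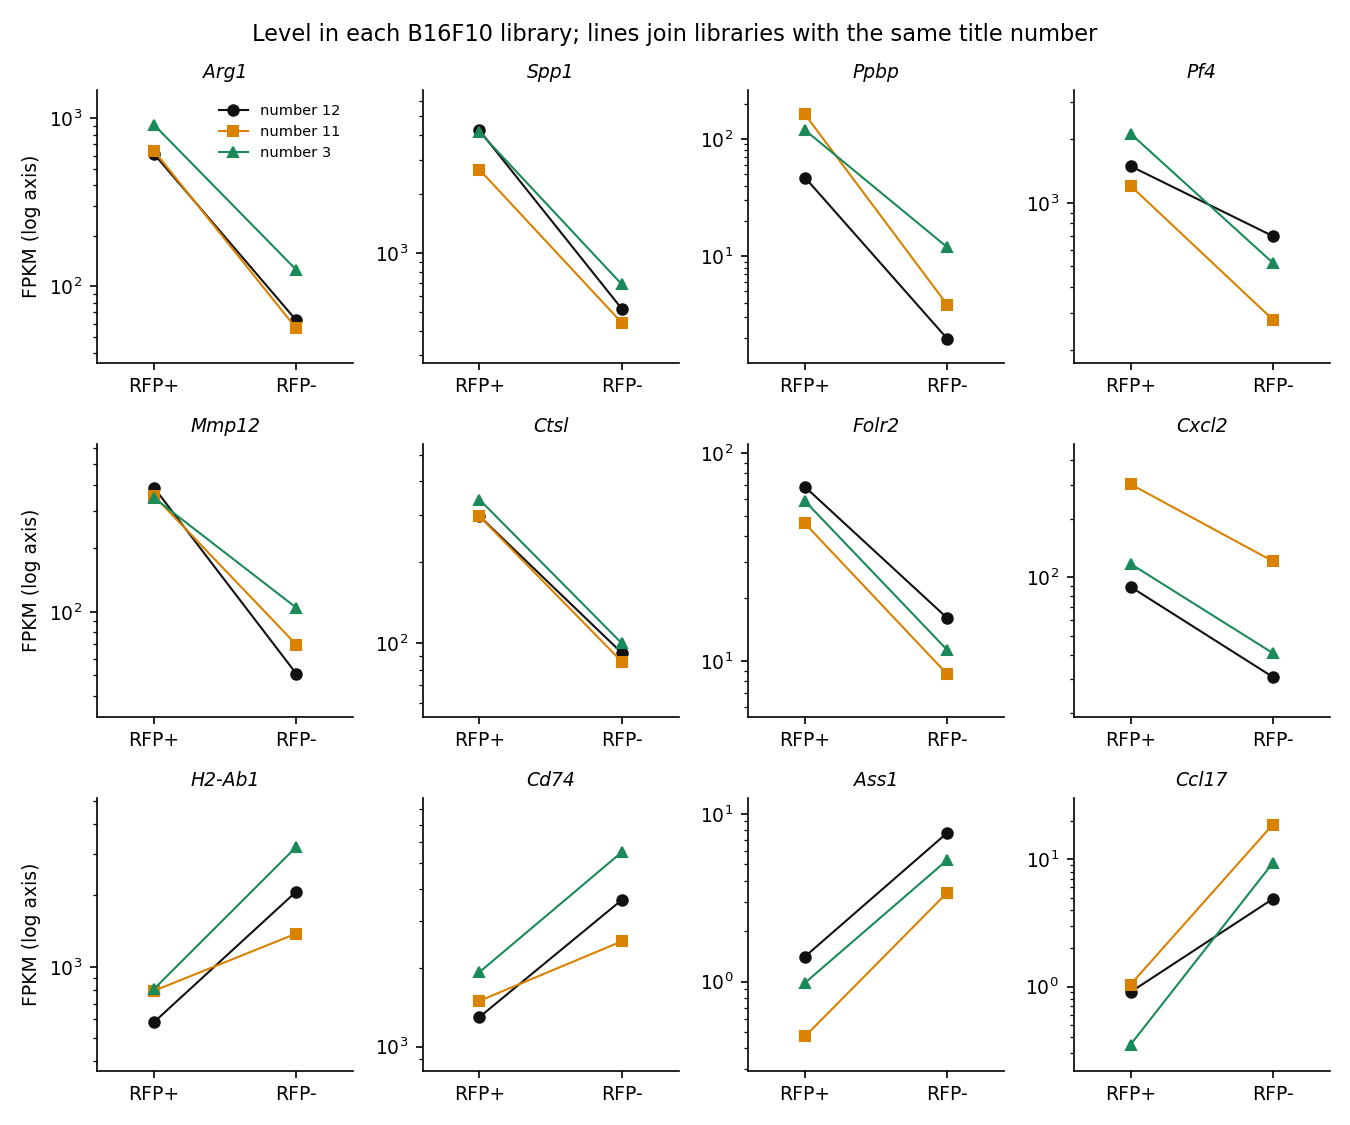
Level of 12 genes in each B16F10 library, with FPKM on a log axis, RFP+ on the left and RFP- on the right of each panel, and lines joining libraries with the same title number. Circles are number 12, squares number 11 and triangles number 3. All 3 lines fall to the right for Arg1, Spp1, Ppbp, Pf4, Mmp12, Ctsl, Folr2 and Cxcl2, and rise to the right for H2-Ab1, Cd74, Ass1 and Ccl17.

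Some of the secreted matrix and clot proteins rose, and osteopontin did so at a high level. Of 19 tested, 5 rose and none fell, where 0.949% and 0.591% of all genes did, with a median log2 difference of 0.43. Spp1 encodes osteopontin, a secreted ligand of integrins and CD44, and had 4238, 2671 and 4154 FPKM in RFP+ libraries and 519, 441 and 692 FPKM in RFP- libraries. The groups did not overlap, and the mean was 6.69-fold higher in RFP+ cells (log2 difference 2.74 ± 0.12, SE, limma adjusted p = 8.89e-07). Spp1, Arg1 and Ctsl were the 3 genes called in all 22 alternative settings. Thrombospondin 1 (Thbs1), which binds matrix and CD36, had 73.8, 186 and 103 FPKM in RFP+ libraries and 14.7, 55.7 and 32.4 FPKM in RFP- libraries. Here number 11 was highest in both gates, so the groups lay close (73.8 FPKM in the lowest RFP+ and 55.7 FPKM in the highest RFP- library) while each pair differed, and the log2 difference was 1.87 ± 0.13 (SE, limma adjusted p = 4.8e-05). Fibronectin (Fn1) had 58.6, 43.96 and 85.8 FPKM in RFP+ libraries and 17.8, 13.03 and 32.9 FPKM in RFP- libraries, with no overlap, and the log2 difference was 1.57 ± 0.13 (SE, limma adjusted p = 0.000106). Thbs1, Fn1 and Spp1 were steady. F13a1, which encodes the clot-linking factor XIII A chain, had 422, 120.2 and 521 FPKM in RFP+ libraries and 111, 47.4 and 178 FPKM in RFP- libraries. The groups overlapped because number 11 was low in both gates, and its call (log2 difference 1.59 ± 0.22, SE, limma adjusted p = 0.00327) ended without pair 3 (limma adjusted p = 0.0582). Ecm1 rose as well (log2 1.07), a call lost with B16F10 alone (adjusted p = 0.0527) and without pair 3 (0.0641). Of the receptors through which osteopontin and fibronectin act, the integrin chains Itgav (log2 0.35), Itgb1 (0.29) and Itgb3 (-0.33) and Cd44 (0.06) did not pass. Among 14 integrin chains, Itgam, which encodes CD11b, was higher (log2 0.88) and Itgal was lower (log2 -0.83), where 0.949% and 0.591% of all genes were. Neither call held with B16F10 alone (adjusted p = 0.0527 and 0.276), nor did that of Itgal without pair 11 (0.0595) or pair 3 (0.0951).

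Several matrix proteases rose, most of them in 1 cluster on chromosome 9. Of 17 proteases tested 5 were higher and none was lower, where 0.949% and 0.591% of all genes were. Mmp12, the macrophage elastase, had 389, 355 and 348 FPKM in RFP+ libraries and 50.8, 69.9 and 105 FPKM in RFP- libraries. Its RFP+ levels were nearly equal while the RFP- levels varied, and the log2 difference was 2.32 ± 0.20 (SE, limma adjusted p = 0.000157). Mmp13, a collagenase, had 39.3, 82.8 and 53.1 FPKM in RFP+ libraries and 7.68, 13.2 and 15.7 FPKM in RFP- libraries. Number 11 was highest among the RFP+ libraries and number 3 among the RFP- libraries, without overlap, and the log2 difference was 2.16 ± 0.19 (SE, limma adjusted p = 0.000204). Mmp8, the collagenase best known from neutrophils, had 31.01, 25.1 and 51.6 FPKM in RFP+ libraries and 5.504, 3.48 and 20.4 FPKM in RFP- libraries, and the groups did not overlap (log2 difference 2.05 ± 0.27, SE, limma adjusted p = 0.00293). These 3 calls were steady. Mmp27 (log2 1.18) was called too but lost with B16F10 alone (0.0655) and without pair 3 (0.0886). The 4 genes lie together at chr9:7272514-7581885 (GRCm38, the build mm10), while Mmp10, Mmp19, Mmp14 and Mmp9 gave log2 differences of 0.89, 0.79, 0.16 and -0.4 and did not pass. Adam8, a membrane protease of leukocytes, had 226, 130.5 and 249.9 FPKM in RFP+ libraries and 106, 60.1 and 113 FPKM in RFP- libraries and was steady without overlap (log2 difference 1.11 ± 0.10, SE, limma adjusted p = 0.000321). The inhibitors Timp1 (log2 0.25) and Timp2 (0.53) did not pass. The summed level of 11 neutrophil markers, Mmp8 among them, was 93.3, 52.0 and 369 FPKM in RFP+ and 128, 34.3 and 851 FPKM in RFP- libraries. Within each gate the sum was highest in number 3 and lowest in number 11, as Mmp8 was. Across the gates it was lower in RFP+ for numbers 12 and 3 and higher for number 11. Of the 7 neutrophil markers tested Mmp8 rose and Retnlg fell (log2 -1.89, limma adjusted p = 0.0103, and 0.117 without pair 3), where 0.949% and 0.591% of all genes did. The part of neutrophil RNA in these differences was not tested.

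Inside the cell, 1 lysosomal protease and 1 proton pump subunit rose. Ctsl, which encodes cathepsin L, had 296, 296 and 341 FPKM in RFP+ libraries and 92.2, 85.6 and 100.1 FPKM in RFP- libraries. Its replicate libraries were close to each other in both gates, and the log2 difference was 1.74 ± 0.10 (SE, limma adjusted p = 1.27e-05). Of 10 cathepsins tested it alone passed, where 1.54% of all genes tested did. Ctsb, Ctss, Ctsk and Ctsd gave log2 differences of 0.45, 0.55, 0.73 and 0.23. Atp6v0d2, the d2 subunit of the vacuolar proton pump, known from macrophages and osteoclasts, had 47.2, 15.7 and 22.98 FPKM in RFP+ libraries and 7.001, 2.51 and 5.15 FPKM in RFP- libraries. It was higher in all 3 pairs without overlap (log2 difference 2.27 ± 0.20, SE, limma adjusted p = 0.000225). The other 15 pump genes tested, Atp6v0d1 among them (log2 -0.33), did not pass. Of 28 lysosomal hydrolases and membrane proteins none passed, where 1.54% of all genes tested did.

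Chemokines were called in both directions. Of 10 CXC ligands tested 5 were higher and 1 was lower, where 0.949% and 0.591% of all genes were. The 5 higher ones lie in 1 cluster at chr5:90768518-90905938 (GRCm38). Ppbp encodes the precursor of CXCL7, a CXCR2 ligand best known from platelets, and had 46.9, 162 and 119 FPKM in RFP+ libraries and 1.97, 3.84 and 11.9 FPKM in RFP- libraries. The lowest RFP+ library was well above the highest RFP- library, and the log2 difference was 4.1 ± 0.32 (SE, limma adjusted p = 0.000106). Pf4, which encodes platelet factor 4 and is named in the title of the study, was far more abundant, with 1493, 1206 and 2129 FPKM in RFP+ libraries and 696, 280.2 and 520.2 FPKM in RFP- libraries. Its groups did not overlap, the mean was 3.23-fold higher in RFP+ cells, and the log2 difference was 1.74 ± 0.18 (SE, limma adjusted p = 0.000715). Both calls were steady. Pf4 and Ppbp are platelet genes in blood, and 8 of 14 platelet and megakaryocyte markers, among them Itga2b, Gp1ba, Gp6 and Tubb1, were under 1 FPKM in all 6 libraries. The 12 markers other than Pf4 and Ppbp summed to 5.35, 5.48 and 7.22 FPKM in RFP+ and to 6.28, 6.32 and 6.89 FPKM in RFP- libraries, and these ranges overlapped. The mean was higher in RFP+ cells for 6 of the 12. Among these Treml1 was at 0.753, 0.179 and 0.587 FPKM in RFP+ and 0, 0 and 0.318 FPKM in RFP- libraries, and Gp9 at 0.174, 0.059 and 1.61 FPKM in RFP+ and 0, 0.0595 and 0.479 FPKM in RFP- libraries, levels too low to be tested. The part of platelet RNA in the rise of Pf4 and Ppbp was not tested.

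The neutrophil-attracting ligands Cxcl1, Cxcl2 and Cxcl3 were highest in number 11 among the RFP+ libraries, and Cxcl1 and Cxcl2 were so among the RFP- libraries too. Cxcl3 had 13.9, 92.3 and 40.3 FPKM in RFP+ libraries and 5.08, 6.31 and 7.24 FPKM in RFP- libraries. The groups did not overlap, and the log2 difference was 2.43 ± 0.35 (SE, limma adjusted p = 0.00535), a call that ended without pair 3 (adjusted p = 0.0704, with a log2 difference of 2.48). Cxcl2 had 89.4, 302 and 117 FPKM in RFP+ libraries and 30.7, 121 and 40.8 FPKM in RFP- libraries. The groups overlapped because RFP- number 11 was above RFP+ numbers 12 and 3, while the pairs differed by nearly the same amount, so the call was steady (log2 difference 1.44 ± 0.14, SE, limma adjusted p = 0.000328). Cxcl1 had 1.94, 27.2 and 3.75 FPKM in RFP+ libraries and 1.302, 8.398 and 0.781 FPKM in RFP- libraries. The groups overlapped, and its call (log2 difference 1.12 ± 0.22, SE, limma adjusted p = 0.0304) ended with B16F10 alone (0.162), without pair 11 (0.0808) and without pair 3 (0.183). Their receptor gene Cxcr2 did not pass (log2 -0.29). The promoters of these 3 genes are shown because the genes lie in the same cluster and each was called higher: 250 bases before each start, from RefSeq on GRCm38.p6 and on the plus strand, at chr5:90890995-90891244 for Cxcl1, chr5:90903649-90903898 for Cxcl2 and chr5:90785851-90786100 for Cxcl3. Capitals mark the longest run of letters that all 3 windows share, the 11 letters GGGAATTTCCC, which hold a sequence of the kind that NF-kappaB is known to bind.
Cxcl1: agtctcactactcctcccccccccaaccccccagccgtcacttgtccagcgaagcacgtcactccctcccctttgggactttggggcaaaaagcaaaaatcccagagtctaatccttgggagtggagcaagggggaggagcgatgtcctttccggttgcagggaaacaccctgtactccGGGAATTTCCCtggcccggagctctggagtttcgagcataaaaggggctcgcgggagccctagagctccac
Cxcl2: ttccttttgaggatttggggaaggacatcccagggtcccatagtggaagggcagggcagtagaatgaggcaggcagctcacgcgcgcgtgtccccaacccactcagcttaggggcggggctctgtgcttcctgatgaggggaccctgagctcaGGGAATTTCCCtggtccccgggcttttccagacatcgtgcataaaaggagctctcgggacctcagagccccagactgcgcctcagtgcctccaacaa
Cxcl3: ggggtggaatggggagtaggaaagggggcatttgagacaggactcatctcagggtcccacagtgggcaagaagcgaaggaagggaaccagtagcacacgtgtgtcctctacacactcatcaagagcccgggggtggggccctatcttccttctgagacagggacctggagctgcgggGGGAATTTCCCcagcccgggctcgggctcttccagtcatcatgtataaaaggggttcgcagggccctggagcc
These letters stood at bases 71 to 61 before the start of Cxcl1, 97 to 87 before that of Cxcl2 and 73 to 63 before that of Cxcl3. Searched on both strands, they were found in 14 of 32851 promoter windows of this length (0.0426%), and not in those of Pf4 and Ppbp. Since the run was chosen because the 3 windows share it, its rarity is a description.

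The ligands of CXCR3 and CXCR6 did not follow. Cxcl9 and Cxcl10, which attract T cells, gave log2 differences of -0.63 and -0.06 and did not pass. Cxcl16, the ligand of CXCR6, had 98.3, 43.1 and 57.03 FPKM in RFP+ libraries and 147, 73.9 and 103 FPKM in RFP- libraries. Each RFP+ library was below its RFP- partner, and the log2 difference was -0.73 ± 0.11 (SE, limma adjusted p = 0.00556), a call lost with B16F10 alone (0.0798) and without pair 3 (0.0755). The fractalkine receptor gene Cx3cr1 fell as well (log2 -1.03, limma adjusted p = 0.0406), with an adjusted p of 0.22 in B16F10 alone, 0.0549 without pair 11 and 0.18 without pair 3.

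Of 12 CC ligands tested, 5 rose and 3 fell, where 0.949% and 0.591% of all genes did. Ccl8, a ligand that attracts monocytes and T cells, had 1311, 539 and 922 FPKM in RFP+ libraries and 650.5, 178 and 219 FPKM in RFP- libraries. RFP- number 12 was above RFP+ number 11, but each pair differed, and the call was steady (log2 difference 1.56 ± 0.17, SE, limma adjusted p = 0.000923). Ccl24, an eosinophil attractant of low level, had 11.1, 19.6 and 21.3 FPKM in RFP+ libraries and 2.33, 2.24 and 4.49 FPKM in RFP- libraries and was steady without overlap (log2 difference 2.19 ± 0.27, SE, limma adjusted p = 0.00179). Ccl6 (log2 difference 1.18 ± 0.16, SE, limma adjusted p = 0.00293) and Ccl9 (log2 difference 1.08 ± 0.14, SE, limma adjusted p = 0.00293) were steady too, at means of 1606 ± 465 FPKM in RFP+ cells and 724 ± 267 FPKM in RFP- cells for Ccl6 and of 170.3 ± 37.4 FPKM in RFP+ cells and 82.2 ± 29.9 FPKM in RFP- cells for Ccl9. Ccl7, a CCR2 ligand, had 1369, 968 and 1911 FPKM in RFP+ libraries and 878, 636 and 795 FPKM in RFP- libraries. Its groups did not overlap (log2 difference 0.84 ± 0.15, SE, limma adjusted p = 0.0169), and the call was lost with B16F10 alone (0.171) and without pair 3 (0.133). Its partner Ccl2, with 1085, 665 and 1526 FPKM in RFP+ libraries and 814, 472 and 718 FPKM in RFP- libraries, missed the threshold (log2 0.67, limma adjusted p = 0.0516), and Ccl3 (0.24) and Ccl4 (0.04) did not pass. Among the receptors Ccr1 and Ccr2 gave log2 differences of 0.36 and -0.33 and did not pass.

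Of the lower genes Ccl17, Ccl22 and the receptor Ccr7 are known from dendritic cells, which carry antigen to lymph nodes by CCR7. Ccl17, a ligand for CCR4 on regulatory and helper T cells, had 0.905, 1.04 and 0.3499 FPKM in RFP+ libraries and 4.88, 18.7 and 9.35 FPKM in RFP- libraries. The highest RFP+ library was below the lowest RFP- library, and the log2 difference was -2.61 ± 0.46 (SE, limma adjusted p = 0.0152). Ccl22, which shares the receptor, had 0.965, 2.08 and 0.701 FPKM in RFP+ libraries and 2.496, 20.9 and 3.603 FPKM in RFP- libraries, with RFP- number 11 far above the others, and the log2 difference was -1.7 ± 0.32 (SE, limma adjusted p = 0.0223). Ccr7 had 3.74, 8.74 and 0.164 FPKM in RFP+ libraries and 8.44, 39.6 and 4.03 FPKM in RFP- libraries, again with number 11 highest in both gates and overlapping groups (log2 difference -1.72 ± 0.23, SE, limma adjusted p = 0.00293). Ccl5, a T cell attractant, had 30.2, 31.1 and 12.5 FPKM in RFP+ libraries and 40.1, 97.9 and 47.2 FPKM in RFP- libraries, without overlap, and the log2 difference was -1.28 ± 0.22 (SE, limma adjusted p = 0.0125). Without pair 3 none of the 4 passed (limma adjusted p = 0.147, 0.117, 0.0572 and 0.142), and without pair 11 Ccl17 (0.0574), Ccl22 (0.0537) and Ccl5 (0.0546) did not pass either. Ccl22 did not pass with B16F10 alone (0.0527). The 12 dendritic cell markers other than these 3 genes summed to 12.7, 14.6 and 18.04 FPKM in RFP+ and to 24.3, 21.1 and 51.9 FPKM in RFP- libraries, without overlap. With the 3 genes the sums were 18.3, 26.4 and 19.3 FPKM in RFP+ and 40.1, 100.3 and 68.9 FPKM in RFP- libraries. Of 8 tested, 3 fell, which were Ccl17, Ccl22 and Ccr7 themselves, and none rose, where 0.591% and 0.949% of all genes did. All 8 log2 differences were negative, as were those of 5759 of the 11175 genes tested. Clec9a and Siglech were under 1 FPKM in all 6 libraries. In bulk samples fewer cells of a type and less RNA per cell cannot be told apart, and the part of these markers in the lower genes was not tested.

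MHC class II genes, which present peptides to helper T cells, were lower in RFP+ cells. Of 13 genes tested 6 fell and none rose (median log2 difference -1.21), where 0.591% and 0.949% of all genes did. All 9 molecules of the pathway gave negative differences, as did 5759 of the 11175 genes tested. H2-Ab1, a beta chain of the I-A molecule, had 584, 792 and 806 FPKM in RFP+ libraries and 2075, 1381 and 3199.7 FPKM in RFP- libraries. H2-Aa, its alpha chain, had 288, 335 and 414 FPKM in RFP+ libraries and 889.5, 661 and 1471 FPKM in RFP- libraries. H2-Eb1, the beta chain of I-E, had 92.5, 144 and 154 FPKM in RFP+ libraries and 337, 279 and 573 FPKM in RFP- libraries. In all 3 the RFP+ libraries lay close together and below every RFP- library, RFP- number 11 was the lowest and number 3 the highest of its gate, and the means were 3.05-, 2.91- and 3.04-fold lower in RFP+ cells. The log2 differences were -1.54 ± 0.21, -1.48 ± 0.17 and -1.56 ± 0.17 (SE), with limma adjusted p of 0.00415, 0.00102 and 0.000923. Cd74, the invariant chain that escorts class II molecules to the endosome, had 1297, 1495 and 1923 FPKM in RFP+ libraries and 3619.7, 2519 and 5503 FPKM in RFP- libraries. The groups did not overlap, and the log2 difference was -1.25 ± 0.19 (SE, limma adjusted p = 0.00726). H2-DMa and H2-DMb1, the chains of the molecule that loads peptide, fell by 1.21 and 1.26 on the log2 scale (limma adjusted p = 0.00271 and 0.00066) at means of 50.6 ± 6.58 FPKM in RFP+ cells and 126 ± 52.2 FPKM in RFP- cells for H2-DMa and of 69.1 ± 6.18 FPKM in RFP+ cells and 172 ± 50.6 FPKM in RFP- cells for H2-DMb1. H2-Aa, H2-Eb1 and H2-DMb1 were steady. Without pair 3 H2-Ab1 (adjusted p = 0.0777), H2-DMa (0.0582) and Cd74 (0.117) did not pass, and Cd74 did not pass with B16F10 alone (0.0627). The other members were H2-DMb2 (log2 -1.18), H2-Oa (-1.25) and H2-Ob (-0.5), none of them called.

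The regulators of class II genes were low in level and did not pass: Ciita, the transactivator, had 0.552, 1.303 and 0.383 FPKM in RFP+ libraries and 0.468, 1.47 and 3.12 FPKM in RFP- libraries (log2 -0.53), and Rfx5, Rfxap and Rfxank gave log2 differences of -0.06, 0.00 and -0.48. The promoters of the 3 steady class II genes are shown because class II genes are known to share short elements, called the X and Y boxes, through which these regulators act. They are the 250 bases before each start, from RefSeq on GRCm38.p6, at chr17:34305617-34305866 on the plus strand for H2-Eb1, chr17:34152941-34153190 on the plus strand for H2-DMb1 and chr17:34287824-34288073 on the minus strand for H2-Aa. Capitals mark the Y box core TGATTGG and, in H2-Eb1 and H2-DMb1, the longest run of letters that these 2 windows share, the 13 letters AACTGATGATGCT.
H2-Eb1: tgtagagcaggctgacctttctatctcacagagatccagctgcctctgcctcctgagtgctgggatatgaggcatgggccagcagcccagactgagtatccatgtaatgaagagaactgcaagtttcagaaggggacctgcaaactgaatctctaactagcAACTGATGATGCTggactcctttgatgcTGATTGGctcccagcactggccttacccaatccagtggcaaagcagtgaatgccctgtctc
H2-DMb1: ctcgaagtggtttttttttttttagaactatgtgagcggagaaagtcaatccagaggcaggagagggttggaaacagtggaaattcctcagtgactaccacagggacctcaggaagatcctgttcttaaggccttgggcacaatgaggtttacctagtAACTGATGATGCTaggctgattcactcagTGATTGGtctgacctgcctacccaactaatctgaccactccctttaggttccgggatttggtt
H2-Aa: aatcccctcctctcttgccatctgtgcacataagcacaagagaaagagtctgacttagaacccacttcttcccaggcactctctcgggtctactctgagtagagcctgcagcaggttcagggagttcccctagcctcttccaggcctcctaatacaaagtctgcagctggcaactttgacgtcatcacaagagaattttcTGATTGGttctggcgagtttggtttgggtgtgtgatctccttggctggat
On both strands, the Y box letters were found in 2375 of 32851 promoter windows (7.23%) and the shared run in 2 (0.00609%), those of H2-Eb1 and H2-DMb1 by which it was chosen. The Y box and the run did not overlap in these sequences. The Y box stood at bases 61 to 55, 63 to 57 and 50 to 44 before the starts of H2-Eb1, H2-DMb1 and H2-Aa. The shared run stood at bases 89 to 77 and 92 to 80 before the starts of H2-Eb1 and H2-DMb1, and these exact letters were not in the window of H2-Aa. Neither was in the 2 windows listed for H2-DMa.

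Of 22 genes of MHC class I presentation none passed, where 1.54% of all genes tested did. The median log2 difference was -0.24, and the medians by pair were -0.47, -0.05 and -0.07 for pairs 12, 11 and 3. The transporter gene Tap1 (log2 -0.62) and the immunoproteasome gene Psmb8 (-0.52) came closest, with limma adjusted p of 0.0819 and 0.0753. Of the costimulatory genes Cd80, Cd86 and Cd40 gave log2 differences of 0.18, -0.06 and -0.14, and Cd274, which encodes PD-L1, gave 0.4; none passed.

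**Figure D3:**
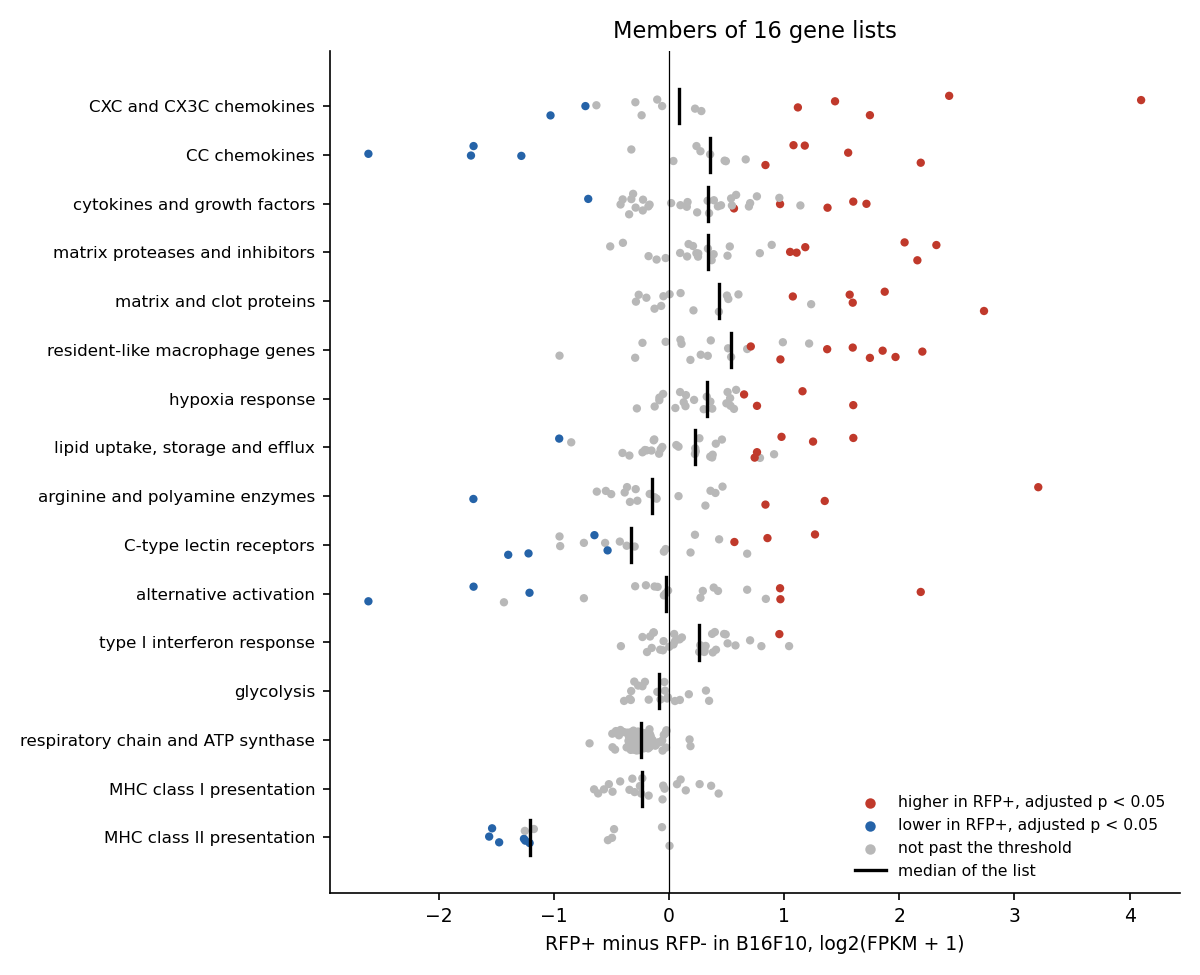
Log2 difference, RFP+ minus RFP- in B16F10, of every tested member of 16 gene lists, 1 point per gene and a black bar at the median of the list. Red and blue points passed the threshold. The chemokine lists hold calls on both sides, the MHC class II list is lower with a median of -1.21, and the respiratory chain holds no call.

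Resident-like macrophage genes, which mark macrophages long settled in tissues, rose in part. Of 23 tested, 8 were higher and none was lower, where 0.949% and 0.591% of all genes were. The median log2 difference of the list was 0.54. Folr2, a folate receptor, had 68.9, 45.9 and 58.8 FPKM in RFP+ libraries and 16.1, 8.63 and 11.3 FPKM in RFP- libraries. Its mean was 4.82-fold higher in RFP+ cells and the groups did not overlap (log2 difference 2.2 ± 0.33, SE, limma adjusted p = 0.00636). The call held with B16F10 alone and ended without pair 3 (adjusted p = 0.0916), although the log2 difference then was 2.16. Lyve1, a hyaluronan receptor, was at 2.32, 1.24 and 8.81 FPKM in RFP+ libraries and 0.316, 0.121 and 0.0455 FPKM in RFP- libraries, under 1 FPKM in the RFP- gate, and the log2 difference was 1.85 ± 0.35 (SE, limma adjusted p = 0.0219), with an adjusted p of 0.0527 in B16F10 alone and 0.07 without pair 3. Lyve1 met the filter of 1 FPKM in 3 libraries only through the RFP+ libraries, so its call is given as a description. Ednrb, an endothelin receptor gene, had 16.4, 12.4 and 44.9 FPKM in RFP+ libraries and 3.74, 2.702 and 9.23 FPKM in RFP- libraries and was steady (log2 difference 1.97 ± 0.21, SE, limma adjusted p = 0.000719). In MC38 Ednrb was low, with means of 1.5 ± 2.2 FPKM in RFP+ cells and 0.88 ± 1.06 FPKM in RFP- cells and a log2 difference of 0.2. The test of the difference between tumours gave a limma adjusted p of 0.125. Which cells in the B16F10 samples made Ednrb RNA was not tested. Cd163, the haemoglobin scavenger receptor, was low at 2.503, 2.93 and 2.42 FPKM in RFP+ libraries and 0.925, 0.586 and 1.06 FPKM in RFP- libraries, and its call (log2 difference 0.97 ± 0.20, SE, limma adjusted p = 0.0355) ended in B16F10 alone (0.184) and without any 1 pair (0.0605, 0.0764 and 0.0975 without pairs 12, 11 and 3). The mannose receptor Mrc1, the best known member, had 75.9, 27.8 and 80.2 FPKM in RFP+ libraries and 39.6, 24.4 and 41.6 FPKM in RFP- libraries, and its log2 difference of 0.68 did not pass (limma adjusted p = 0.0656). Others such as Stab1 (log2 -0.3) and Gas6 (-0.23) lay on the other side of 0 without passing. Of 20 monocyte-like genes tested 3 were higher and none was lower, where 0.949% and 0.591% of all genes were. Their median log2 difference was 0.08. These 3 were Thbs1, Fn1 and F13a1, and F13a1 is in the resident-like list too.

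Cd36, a receptor for fatty acids and oxidized lipoprotein, had 103, 105 and 99.1 FPKM in RFP+ libraries and 21.9, 33.7 and 48.9 FPKM in RFP- libraries. The RFP+ levels were nearly equal and wholly above the RFP- levels, and the call was steady (log2 difference 1.6 ± 0.19, SE, limma adjusted p = 0.00119). The scavenger receptor Msr1 rose (log2 0.98, adjusted p = 0.00541, and 0.0648 without pair 3). Axl, a receptor that binds apoptotic cells through Gas6, had 22.97, 12.7 and 15.4 FPKM in RFP+ libraries and 51.96, 22.6 and 43.9 FPKM in RFP- libraries and was steady in the other direction (log2 difference -1.13 ± 0.14, SE, limma adjusted p = 0.00178). Its relative Mertk did not pass (log2 0.64).

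Of 31 genes of lipid uptake, storage and efflux 5 were higher and 1 was lower, where 0.949% and 0.591% of all genes were. The median log2 difference of the list was 0.22, and 0.06 with macrophage core scaling. The lipid droplet coat gene Plin2 had 472, 617 and 600.4 FPKM in RFP+ libraries and 348, 301 and 356 FPKM in RFP- libraries, without overlap (log2 difference 0.74 ± 0.13, SE, limma adjusted p = 0.0123). The droplet gene Hilpda had 366, 487 and 436 FPKM in RFP+ libraries and 231, 295 and 231 FPKM in RFP- libraries, also without overlap (log2 difference 0.76 ± 0.11, SE, limma adjusted p = 0.00541). Both calls ended with B16F10 alone (0.149 and 0.0833) and without pair 3 (0.113 and 0.0749), and that of Plin2 without pair 11 (0.0522). The fatty acid binding gene Fabp4 (log2 1.25) was called in B16F10 alone but not without any 1 pair (0.0768, 0.0549 and 0.125 without pairs 12, 11 and 3). Dgat2, which makes triglyceride, was lower (log2 -0.96), with an adjusted p of 0.168 in B16F10 alone, 0.0884 without pair 12 and 0.174 without pair 3. Trem2 (log2 0.22), Lpl (0.79), Abca1 (0.91) and Apoe (0.08) did not pass.

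Of 25 hypoxia response genes, targets of the HIF factors, 4 rose and none fell, where 0.949% and 0.591% of all genes did. The median log2 difference of the list was 0.33, and 0.16 with macrophage core scaling. The vasodilator peptide gene Adm had 24.1, 12.3 and 23.01 FPKM in RFP+ libraries and 5.63, 5.29 and 5.91 FPKM in RFP- libraries. The RFP- levels were nearly equal and below all RFP+ levels, and the log2 difference was 1.6 ± 0.20 (SE, limma adjusted p = 0.00188), a steady call. Egln3, an oxygen-sensing hydroxylase, had 11.3, 16.4 and 14.2 FPKM in RFP+ libraries and 4.96, 6.32 and 5.69 FPKM in RFP- libraries, with no overlap (log2 difference 1.16 ± 0.20, SE, limma adjusted p = 0.0122), and its call ended without pair 3 (adjusted p = 0.117). Ankrd37 was at the threshold (log2 0.65, limma adjusted p = 0.04998, with an adjusted p of 0.201 in B16F10 alone, 0.0761 without pair 11 and 0.229 without pair 3). Vegfa (log2 0.58), Hif1a (0.53) and Bnip3 (0.37) did not pass. The heme oxygenase gene Hmox1, which degrades heme, had 1039.7, 553 and 792 FPKM in RFP+ libraries and 399, 217 and 285 FPKM in RFP- libraries. The groups did not overlap, and the mean was 2.65-fold higher in RFP+ cells, a steady call (log2 difference 1.4 ± 0.11, SE, limma adjusted p = 0.000106). The glutathione synthesis genes Gclc (0.75) and Gclm (0.79) did not pass.

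Of 34 cytokine and growth factor genes 5 were higher and 1 was lower, where 0.949% and 0.591% of all genes were. The lower one was Ebi3, a subunit of the cytokines IL-27 and IL-35 (log2 -0.7, adjusted p = 0.0482), whose call ended with B16F10 alone (0.33), without pair 12 (0.0884) and without pair 3 (0.212). Il1a had 27.4, 105 and 7.46 FPKM in RFP+ libraries and 2.58, 48.98 and 3.05 FPKM in RFP- libraries, with number 11 high in both gates, so that the groups overlapped while all pairs differed (log2 difference 1.71 ± 0.30, SE, limma adjusted p = 0.014). Without pair 3 it did not pass (0.0535). Il1rn, the antagonist of the same receptor, had 93.7, 156 and 77.9 FPKM in RFP+ libraries and 40.97, 87.6 and 41.6 FPKM in RFP- libraries, again with number 11 highest and overlapping groups, and was steady (log2 difference 0.96 ± 0.11, SE, limma adjusted p = 0.00119). Il1r2, the decoy receptor that binds interleukin 1 without signalling, fell with 4.27, 11.5 and 10.6 FPKM in RFP+ libraries and 11.5, 27.8 and 25.6 FPKM in RFP- libraries (log2 difference -1.21 ± 0.12, SE, limma adjusted p = 0.000463, steady). Il1b, in contrast, gave a log2 difference of 0.42 and did not pass. Inhba, the activin A subunit gene, had 5.93, 34.1 and 7.49 FPKM in RFP+ libraries and 0.892, 13.6 and 3.27 FPKM in RFP- libraries, overlapping but higher in each pair (log2 difference 1.38 ± 0.19, SE, limma adjusted p = 0.00374, steady). The prostaglandin synthase Ptgs2, with 27.3, 79.04 and 21.5 FPKM in RFP+ libraries and 5.96, 44.6 and 9.997 FPKM in RFP- libraries, was steady too, with overlapping groups (log2 difference 1.29 ± 0.19, SE, limma adjusted p = 0.00616). Tnf (log2 -0.17), Il10 (0.76) and Tgfb1 (-0.35) did not pass. Nt5e, which encodes the adenosine-forming enzyme CD73, was low at 2.22, 7.61 and 3.08 FPKM in RFP+ libraries and 0, 1.74 and 0.497 FPKM in RFP- libraries and steady (log2 difference 1.6 ± 0.18, SE, limma adjusted p = 0.00104). Siglece, an inhibitory sialic acid receptor gene, fell (log2 -1.5, limma adjusted p = 0.00726, with 0.0704 without pair 3).

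Of 20 C-type lectin receptor genes 3 rose and 4 fell, where 0.949% and 0.591% of all genes did, and 5 of these 7 lie in the dectin-2 cluster. At chr6:122921848-123289870 (GRCm38) the 2 genes at 1 end fell and the 3 at the other rose. Clec4d, a receptor for microbial glycolipids, had 33.4, 37.1 and 33.8 FPKM in RFP+ libraries and 14.7, 13.1 and 13.8 FPKM in RFP- libraries, with close replicates and a steady call (log2 difference 1.27 ± 0.13, SE, limma adjusted p = 0.000585). Its neighbours Clec4e (log2 0.85) and Clec4n (0.57) rose, with adjusted p of 0.0695 and 0.238 in B16F10 alone, and Clec4n with 0.0572 without pair 11 and 0.0761 without pair 3. At the other end Clec4b1 had 9.41, 6.91 and 9.78 FPKM in RFP+ libraries and 17.7, 17.2 and 46.8 FPKM in RFP- libraries and was lower (log2 difference -1.4 ± 0.22, SE, limma adjusted p = 0.00958), which ended without pair 3 (0.083). Clec4a1 was lower too (log2 -0.65), a call lost with B16F10 alone (0.227) and without pair 3 (0.177).

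Energy metabolism gave no call, where 1.54% of all genes tested were called. At that share a list of this size can hold none, so the lack of a call is a description. None of 70 genes of the respiratory chain and ATP synthase passed. Of their differences 68 of 70 were negative, with a median of -0.24, where 5759 of the 11175 genes tested were negative. The medians by pair were -0.68, -0.02 and -0.05 for pairs 12, 11 and 3, so the shift lies in the pair that holds RFP- library 12. Uqcrc1, a subunit of complex III, shows it with 333, 267 and 285 FPKM in RFP+ libraries and 1005, 281 and 378 FPKM in RFP- libraries: RFP- number 12 was far above the other 5 libraries. Of 20 glycolysis genes none passed, with a median log2 difference of -0.09 and medians by pair of -0.40, 0.01 and 0.00. Nor did any of 40 cell cycle, 29 sterol and fatty acid synthesis or 29 unfolded protein and stress response genes pass. Of 33 type I interferon-stimulated genes 1 was called, which is 3.03% of the list where 1.54% of all genes tested were called. It was Ddx58, a sensor of viral RNA, which was higher (log2 0.96), with an adjusted p of 0.196 in B16F10 alone, 0.0613 without pair 12 and 0.169 without pair 3.

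**Figure D4:**
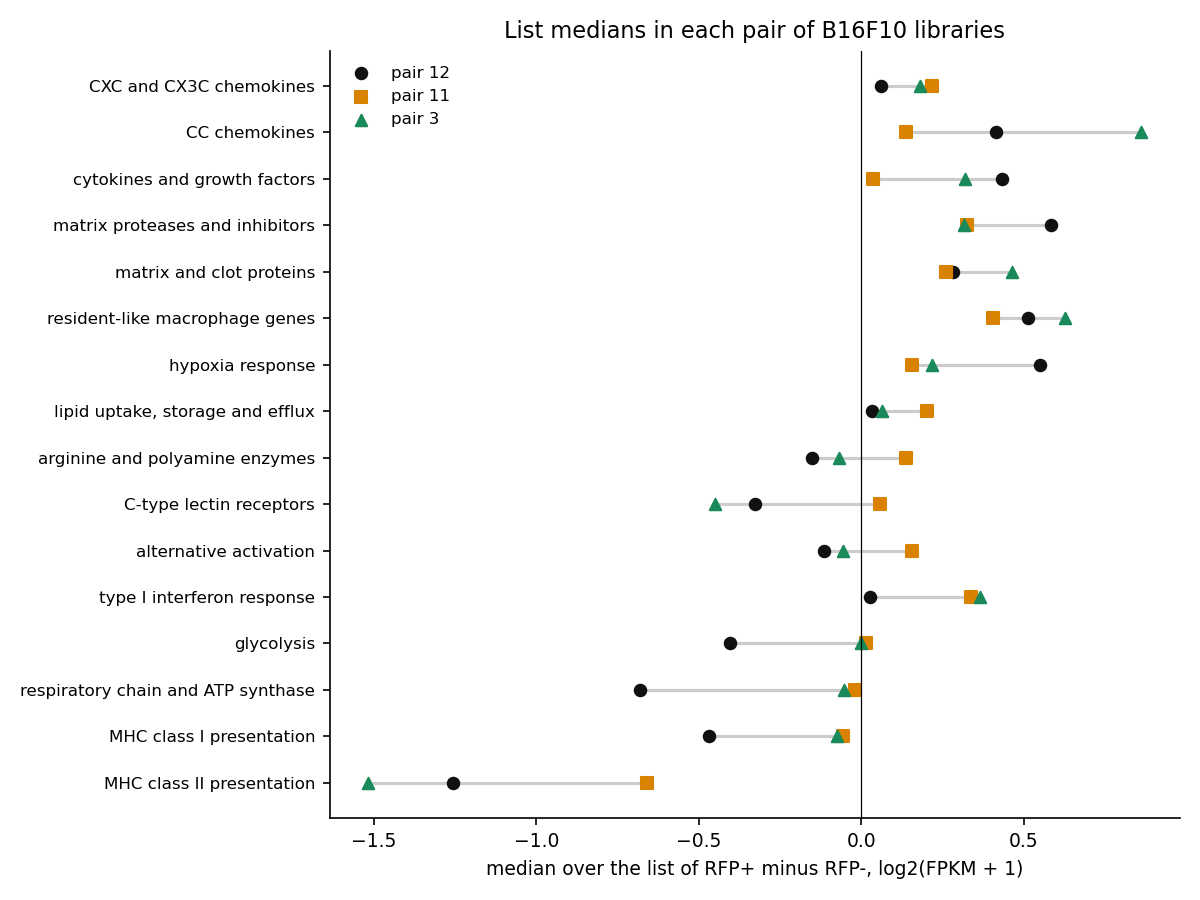
Median log2 difference, RFP+ minus RFP-, of 16 gene lists in each pair of B16F10 libraries. Circles are pair 12, squares pair 11 and triangles pair 3. MHC class II is below 0 and the matrix, protease and resident-like lists are above 0 in all 3 pairs, while the respiratory chain, glycolysis and MHC class I lie near 0 except in pair 12.

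The last comparison set the gate difference of B16F10 beside that of MC38. Of the 106 genes higher in B16F10, 97 (91.5%) had a positive difference in MC38, where 50.5% of all genes did, and 27 passed there, where 0.376% of all genes were called higher. For the 66 lower genes 52 (78.8%) had a negative difference in MC38, where 49.5% of all genes did, and 2 passed, where 0.0537% were called lower. The median log2 differences were 1.08 in B16F10 and 0.51 in MC38 for the higher genes, and -0.97 and -0.22 for the lower genes. Since these genes were chosen by their values in B16F10, a larger size there is not a finding. Both tumours also share 1 estimate of the spread of each gene, so the 27 and 2 that passed in MC38 are not independent of the calls in B16F10. Arg1 differed by nearly the same amount in both tumours (log2 3.21 ± 0.13 in B16F10 and 3.17 ± 0.13 in MC38; SE), and Npy, Atp6v0d2 and Folr2 had log2 differences of 2.37, 2.27 and 2.2 in B16F10 and of 2.02, 2.06 and 2.08 in MC38.

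The difference between both tumours was tested for every gene, and 3 passed (0.0268%). No gene passed without the block, with no filter on low levels, or without MC38 number 1 or 3, and 13 passed without pair 12, so these 3 calls are not firm. Ppbp was called in B16F10 and not in MC38, where its means were 1.47 ± 1.59 FPKM in RFP+ cells and 1.03 ± 0.792 FPKM in RFP- cells, and the difference between tumours was 3.96 ± 0.45 on the log2 scale (SE, limma adjusted p = 0.0297). In MC38 Ctsl had means of 245 ± 42.2 FPKM in RFP+ cells and 162 ± 29.3 FPKM in RFP- cells and a log2 difference of 0.6 (limma adjusted p = 0.0358), against 1.74 in B16F10, and the difference between tumours was 1.14 ± 0.15 (limma adjusted p = 0.0357). Ass1 was lower in RFP+ cells of B16F10 and not of MC38, where its means were 17.1 ± 1.91 FPKM in RFP+ cells and 15.3 ± 2.88 FPKM in RFP- cells, and the difference between tumours was -1.86 ± 0.24 (limma adjusted p = 0.0357). For Spp1, with a log2 difference of 2.74 in B16F10 and 1.52 in MC38, the test of the difference gave a limma adjusted p of 0.0659. For the MHC class II genes H2-Ab1 and H2-Aa, called in B16F10 and not in MC38 (log2 -0.46 and -0.45), it gave 0.473 and 0.373, so a difference between tumours was not shown. H2-Ab1 averaged 728 ± 124 FPKM in RFP+ cells and 2218 ± 918 FPKM in RFP- cells in B16F10 and 11127 ± 1538 FPKM in RFP+ cells and 15358 ± 2143 FPKM in RFP- cells in MC38; this contrast between tumours was not tested here.

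**Figure D5:**
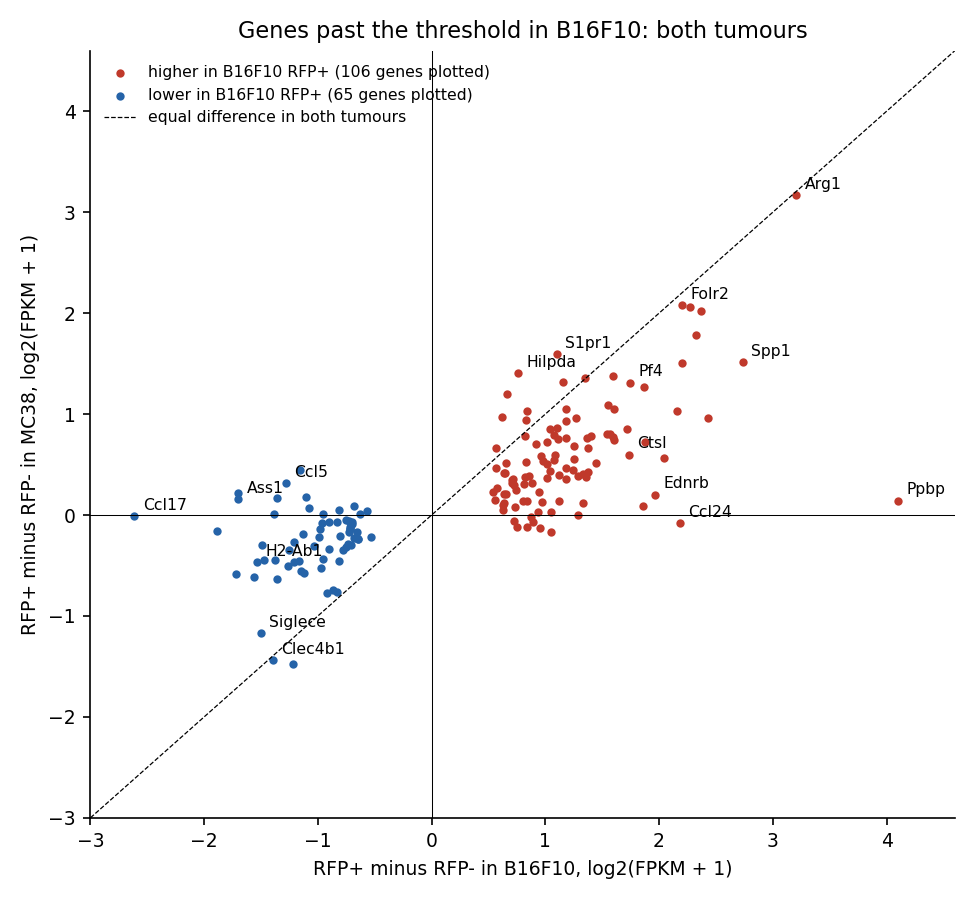
Log2 difference, RFP+ minus RFP-, in B16F10 (horizontal) and in MC38 (vertical) for the genes called in B16F10, red where higher (106 genes) and blue where lower (without Mir1954, which is listed at 0 in all RFP+ libraries). The dashed line marks equal differences. Arg1 and Folr2 lie near the line, while Ppbp, Ccl24, Ednrb and Ccl17 lie near 0 in MC38.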

How the data were processed

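RNA was measured by bulk RNA-seq of sorted cells (TRI Reagent total RNA, SMART-Seq HT amplification and Nextera XT libraries, per the labels' protocols). The values are FPKM per gene, which the authors deposited in 1 table per library; the submitters' processing notes name TopHat2 2.1.1, Bowtie2 2.2.8, SAMtools 0.1.18, Cuffdiff 2.2.1 and the build mm10, without their roles. No reads or counts were used, so the depth behind a value is unknown beyond the relative estimate given above, and no count test was run.

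From the 24346 genes, those with at least 1 FPKM in at least 3 of the 6 B16F10 libraries (11175) were kept, and log2(FPKM + 1) was tested with limma 3.58.1 (R 4.3.3; lmFit, then eBayes with a trend), 2-sided, with Benjamini-Hochberg adjustment over all genes kept and a threshold of 0.05. Repeated symbols would have been summed, and there were none. The fit held all 12 libraries, so both tumours share 1 estimate of the spread, with the title number within each tumour as a block. In B16F10 the deviations of libraries with the same number correlated at r from 0.257 to 0.472 across genes, against -0.307 to 0.00957 for different numbers, and the Y-linked gene Eif2s3y was near 0 in number 11 of both gates (0.0687 FPKM in RFP+ and 0.0462 FPKM in RFP-) and 10.7 to 13.6 FPKM in the others. The labels do not say that libraries are from separate animals. The p-values rest on the spread of the pair differences of these libraries, pooled over both tumours. Since the animal of each library is not labelled, they are not read as resting on a spread between animals.

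Genes named are Arg1 and Pf4, the 15 largest called differences each way with a mean of at least 5 FPKM, called members of gene lists and members that complete a family, the closest members of lists without a call, the genes that differed between tumours and the 10 highest levels. The members and lists were chosen with earlier results of these data known. Promoter sequences came from RefSeq (GRCm38.p6). Python 3.11.15 with pandas 2.3.3 and matplotlib 3.10.9 made the tables and figures.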

Additional observations from a re-analysis of the deposited data

Results flagged for a closer look

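The gate difference of 3 genes differed between B16F10 and MC38 by the interaction test across all genes. For Ppbp it was 3.96 ± 0.45 larger in B16F10 (log2, SE, limma adjusted p = 0.0297), with a positive difference in 3 of 3 pairs of B16F10. For Ctsl it was 1.14 ± 0.15 larger (limma adjusted p = 0.0357), again with 3 of 3 pairs of B16F10 positive. For Ass1 the difference between tumours was -1.86 ± 0.24 (limma adjusted p = 0.0357), and 3 of 3 pairs of B16F10 were negative. How many genes passed this test changed with the processing, as given next.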

How the results depend on the processing

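The 172 calls of the gate difference in B16F10 kept their sign under all 22 alternatives that tested them, and Arg1, Spp1 and Ctsl passed in all 22. The title number as a block decides most calls: without the block 17 genes were higher and 6 lower, in place of 106 and 66. With the B16F10 libraries alone 52 and 19 passed with the block, and 6 and 1 without it. Testing all 18107 genes above 0 left 30 and 7, quantile normalization gave 176 and 127, and macrophage core scaling 521 lower genes. Leaving out pairs moved the counts from 44 higher and 13 lower (without pair 3) to 158 and 126 (without pair 11), and leaving out MC38 pair 1, 2 or 3 gave 78, 80 or 81 higher and 31, 37 or 37 lower genes, with 108 to 115 of the 172 still called. Core scaling lowered the list medians in the text, for example those of resident-like genes to 0.38, matrix and clot proteins to 0.26, respiratory chain to -0.41 and glycolysis to -0.26. Without the block, the counts of higher and lower genes were 6 and 2 without RFP+ 12, 8 and 0 without RFP+ 11, 5 and 0 without RFP+ 3, 4 and 0 without RFP- 12, 65 and 52 without RFP- 11, and 15 and 2 without RFP- 3. The 3 genes that differed between tumours became 0 without the block, 1 with a pseudocount of 0.1, 0 with no filter, 7 after quantile normalization and 13 without pair 12, and lay between 0 and 13 over all fits that left libraries out, 0 of them without MC38 number 1 or 3. The cause was not tested. Among uncalled genes of high level signs turned: Ftl1, at 0.213 without pair 12, gave -0.161 under core scaling, -0.138 without pair 11, -0.047 without pair 3 and, with no block, -0.025, -0.181 and -0.038 without RFP+ 12, RFP- 11 and RFP- 3. Apoe, at 0.222 without pair 12, gave -0.089 under core scaling, -0.122 without pair 11 and, with no block, -0.226 and -0.312 without RFP+ 12 and RFP- 11. Ctsd gave -0.109 in the last setting. Ppia, at -0.261 without pair 3, gave 0.046 after quantile normalization and 0.022 without pair 12, and Ldha, at -0.207 without pair 11, gave 0.064 without pair 12. Taking the highest of repeated symbols gives no separate value, since no symbol is repeated. Low genes are taken as the least certain, because 1 read is estimated to be worth more FPKM in B16F10 than in MC38.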

Other observations

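Outside the gene lists 44 higher and 39 lower genes were called, and those given here were chosen after their values were seen. Npy, the gene of neuropeptide Y, had 4.84, 16.97 and 5.31 FPKM in RFP+ libraries and 0, 2.11 and 0.531 FPKM in RFP- libraries. Its groups did not overlap and the call was steady (log2 difference 2.37 ± 0.20, SE, limma adjusted p = 0.000157). Srgn, the core protein of granule proteoglycans, had 275, 376 and 315 FPKM in RFP+ libraries and 128, 175 and 174 FPKM in RFP- libraries, without overlap and with a steady call (log2 difference 1.01 ± 0.12, SE, limma adjusted p = 0.00119). Pdpn, which encodes the membrane mucin podoplanin, had 25.9, 30.1 and 15.7 FPKM in RFP+ libraries and 8.16, 13.4 and 7.997 FPKM in RFP- libraries, and the call was steady (log2 difference 1.18 ± 0.16, SE, limma adjusted p = 0.00327). The annexin gene Anxa3 (log2 difference 0.95 ± 0.11, SE, limma adjusted p = 0.00102), the membrane protein gene Emp1 (log2 difference 1.04 ± 0.16, SE, limma adjusted p = 0.00768), the glycogen-targeting phosphatase subunit Ppp1r3b (log2 difference 1.33 ± 0.20, SE, limma adjusted p = 0.00636) and the Fc receptor-like gene Fcrlb (log2 difference 1.36 ± 0.16, SE, limma adjusted p = 0.00146) were steady as well.

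Sgk1, a kinase gene known to respond to glucocorticoids, had 85.5, 73.6 and 55.6 FPKM in RFP+ libraries and 26.9, 46.6 and 25.6 FPKM in RFP- libraries, without overlap (log2 difference 1.12 ± 0.16, SE, limma adjusted p = 0.00472). Tsc22d3, which encodes GILZ, had a log2 difference of 0.73 (limma adjusted p = 0.00918). Neither was steady. In B16F10 alone the adjusted p was 0.0241 for Sgk1 and 0.0983 for Tsc22d3, and without pair 3 it was 0.0648 and 0.0916. Cd38, an ectoenzyme that consumes NAD, had 47.3, 18.1 and 54.5 FPKM in RFP+ libraries and 20.7, 10.5 and 29.6 FPKM in RFP- libraries (log2 difference 0.92 ± 0.14, SE, limma adjusted p = 0.00616), with an adjusted p of 0.0483 in B16F10 alone and 0.0648 without pair 3.

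Among the lower genes Ifitm1, an antiviral membrane protein gene, had 2.24, 3.64 and 6.45 FPKM in RFP+ libraries and 8.29, 7.54 and 24.1 FPKM in RFP- libraries and was steady (log2 difference -1.38 ± 0.18, SE, limma adjusted p = 0.00215). Rrad, a small GTPase gene, was steady too (log2 difference -1.49 ± 0.19, SE, limma adjusted p = 0.00185). The endosomal receptor chaperone Unc93b1 (log2 difference -0.71 ± 0.11, SE, limma adjusted p = 0.00843) and the surface glycoprotein gene Cd52 (log2 difference -0.73 ± 0.13, SE, limma adjusted p = 0.0189) were lower. Their adjusted p in B16F10 alone was 0.0926 and 0.143, and without pair 3 it was 0.0759 and 0.145.

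Without pair 12, 130 of the 172 calls remained, and 3 features among those that ended are given here. Lars2 and Mir6240 were highest in RFP- library 12 and Mir1954 in RFP- library 11. Lars2 had 659, 688 and 536 FPKM in RFP+ libraries and 2672, 851 and 1071 FPKM in RFP- libraries (log2 difference -1.11 ± 0.24, SE, limma adjusted p = 0.0471), with an adjusted p of 0.159 in B16F10 alone, 0.0613 without pair 12 and 0.177 without pair 3. Mir6240 had 84.7, 70.6 and 71.5 FPKM in RFP+ libraries and 479.8, 87.9 and 175 FPKM in RFP- libraries (log2 difference -1.36 ± 0.30, SE, limma adjusted p = 0.0494), with an adjusted p of 0.0832 in B16F10 alone, 0.135 without pair 12 and 0.187 without pair 3. Mir1954 was listed at 0 in all RFP+ libraries and at 46.5, 164 and 40.1 FPKM in RFP- libraries, so no fold is given, and its adjusted p was 0.0506 without pair 12 and 0.0909 without pair 3. It met the filter on level only through the RFP- libraries, so its call is a description. The ribosomal RNA gene Rn45s was at 780 FPKM in RFP- library 12.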
